A study of Mus musculus with 7 samples.

Results

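*Sort1*, *Poldip3*, *Eif4h*, *Tnik*, *Tbc1d1*, *Dnajc5*, *Hdac6*, *Ranbp1* and *Kpnb1* are genes whose mRNAs have been reported in other tissues and cell lines to need TDP-43, the protein of *Tardbp*, for their splicing or their level. The rule that picks these 9 genes uses such reports and no mammary gland value, though it was written with earlier results of these data known. They are 9 of the 37310 genes in the count table and 9 of the 17175 genes with enough counts to be tested. RNA came from whole mammary glands of C57BL/6 mice at lactation day 1. The 3 WT mice had intact *Tardbp* alleles (Tardbp wt/wt, WAP-Cre), and the 4 KO mice carried floxed *Tardbp* alleles (Tardbp fl/fl, WAP-Cre), from which Cre removes exons 2 and 3. Both groups thus carry the WAP-Cre transgene. The whey acidic protein promoter drives Cre in the luminal cells that make milk, from pregnancy into lactation, so adipocytes, fibroblasts, vessels, myoepithelium and immune cells of a KO gland keep *Tardbp*. A gland is therefore a mixture, and fewer cells of a type and less RNA per cell cannot be told apart in these libraries. Ages of the mice were not given in the sources used here.

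TDP-43 is an RNA-binding protein of the nucleus that recognises repeats of UG, most of them in introns. Bound near an exon it can keep that exon out of the mRNA or help to include it, and bound elsewhere it can alter the stability or transport of the mRNA. In neurons, an exon of *Sort1* that is otherwise mostly skipped enters the mRNA when TDP-43 is lost, and exons of *Poldip3*, *Eif4h*, *Tnik* and *Dnajc5* are also known to depend on TDP-43, that of *Poldip3* being skipped when it is lost. *Hdac6* and *Tbc1d1* are better known for a lower mRNA level after loss of TDP-43, and *Ranbp1* and *Kpnb1* belong to the machinery that moves proteins through the nuclear pore.

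Library totals ran from 36007737 to 42811337 reads on genes. Levels are given in CPM, edgeR's unit of counts relative to the library total, here scaled with TMM factors of 0.781 to 0.909 in WT and 1.00 to 1.23 in KO libraries, and single libraries are always listed in the order of their replicate numbers. Lane 4 of the sequencer is the single lane that held both genotypes. *Tardbp* itself had 223, 178 and 159 CPM in the 3 WT replicates, against 214, 176, 154 and 208 CPM in the 4 KO replicates, for a log2 fold change of 0.01 (SE, the standard error, was 0.182, adjusted p = 0.982, edgeR's quasi-likelihood test). Counts per gene do not show whether exons 2 and 3 are missing, so in these libraries the genotypes rest on the labels alone. For this mouse line the study reports loss of TDP-43 protein by immunofluorescence in late pregnancy and in lactation, on days other than the one sequenced.

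The alternative exons next to which the UG repeats lie closest are shown first, because exon choice is what several of these mRNAs are known for. An alternative exon is here an exon that some annotated transcripts of the gene hold and others skip, and positions are those of mouse assembly NCBIM37 with the GENCODE vM1 annotation. *Sort1* lies on the plus strand of chromosome 3 from 108087009 to 108164429, and its alternative exon of 99 bases is at chr3:108158390-108158488, held by 2 annotated transcripts and skipped by 1. The last 40 bases of the intron before it, at chr3:108158350-108158389, hold a run of 4 UG that ends 13 bases before the exon. *Eif4h* occupies chromosome 5, minus strand, between 135095747 and 135115218. Its exon of 60 bases is at chr5:135100311-135100370, and in the intron before it, at chr5:135100371-135100410, a run of 5 UG ends 9 bases before the exon. *Tnik* is on the plus strand of chromosome 3 from 28162136 to 28574780, and a run of 21 UG begins 97 bases after its exon of 87 bases (chr3:28493829-28493915), within the intron stretch chr3:28493916-28494064. All sequences are written 5′ to 3′ in the sense of the gene, with U as T. Capitals mark runs of at least 4 UG in introns and of at least 2 UG in exons.
Sort1 intron before the exon: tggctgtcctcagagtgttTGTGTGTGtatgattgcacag
Sort1 alternative exon: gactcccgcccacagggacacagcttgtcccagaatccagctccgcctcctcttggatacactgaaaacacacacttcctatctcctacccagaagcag
Eif4h intron before the exon: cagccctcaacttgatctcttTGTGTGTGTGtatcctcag
Eif4h alternative exon: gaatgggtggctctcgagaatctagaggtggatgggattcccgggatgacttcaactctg
Tnik intron after the exon: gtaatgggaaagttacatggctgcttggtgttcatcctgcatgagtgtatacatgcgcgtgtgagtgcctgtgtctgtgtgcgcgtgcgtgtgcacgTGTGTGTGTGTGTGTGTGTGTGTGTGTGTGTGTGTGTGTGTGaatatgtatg
In *Sort1* and *Eif4h* the repeat lies directly ahead of the splice site that ends the intron, while in *Tnik* it follows the splice site that begins the intron.

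The other genes differ in this respect. *Poldip3*, on chromosome 15 (minus strand, 82956408 to 82979814), has alternative exons of 87 bases (chr15:82967898-82967984) and 96 bases (chr15:82965724-82965819). The nearest run of at least 4 UG lies 3203 bases after the former and 1029 bases after the latter. The exon of 87 bases is shown because, unlike the exons above, neither it nor its introns close by hold such a run.
Poldip3 alternative exon: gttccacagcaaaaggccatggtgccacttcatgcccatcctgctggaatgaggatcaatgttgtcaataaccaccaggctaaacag
*Tbc1d1*, on the plus strand of chromosome 5 from 64550690 to 64742725, has coding alternative exons of 159, 120 and 160 bases, with runs of 4 UG that lie 107, 449 and 244 bases away. *Hdac6*, *Ranbp1* and *Kpnb1* have no alternative coding exon in the annotation, and the single alternative exon of *Dnajc5*, of 53 bases, is noncoding. In all, 12 alternative coding exons are annotated in these genes. A run of at least 4 UG lay within 20 bases of 2 of the 12 (16.7%), against 193 of the 11654 such exons of all tested genes (1.66%). A run of at least 6 lay within 100 bases of 1 of the 12 (8.33%), against 180 of 11654 (1.54%). Both distances were chosen after the distances in these genes had been seen, so the shares are a description.

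**Figure D1:**
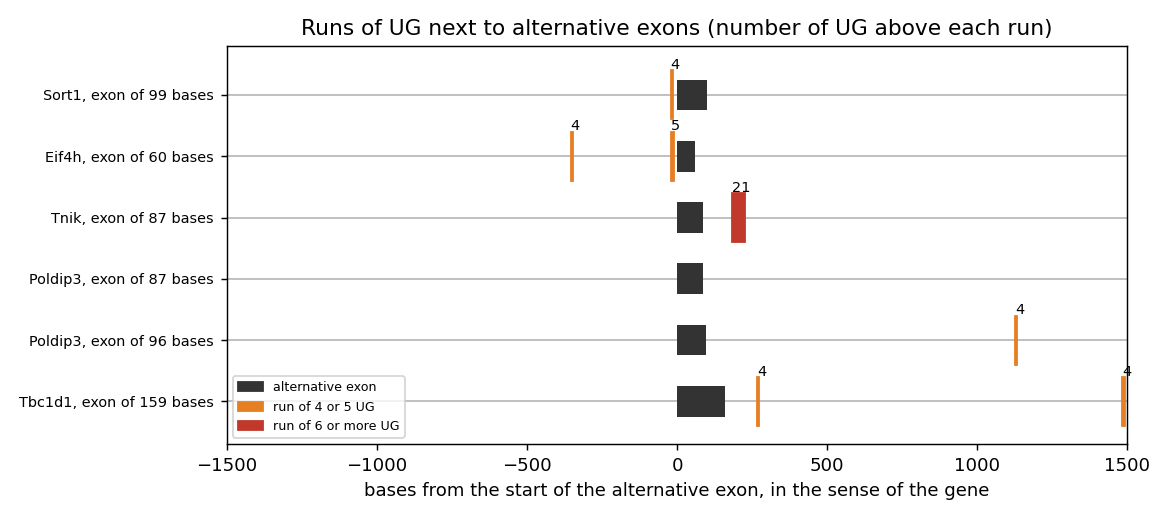
Runs of UG around 6 alternative exons, drawn to scale in bases from the start of the exon in the sense of the gene, with the number of UG above each run. The runs of 4 and 5 UG of Sort1 and Eif4h lie directly before their exons, the run of 21 in Tnik lies 97 bases after the exon, and no run is in view beside the 87-base exon of Poldip3.

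Over whole genes, long repeats were about as frequent in the 9 as elsewhere. A run of at least 6 UG, counted anywhere between the first and the last exon, occurred in 5 of the 9 (55.6%) and in 63.1% of the 17175 tested genes, and all of these runs in the 9 genes lay outside annotated exons. Within annotated exons, 8.63% of the tested genes had such a run. The longest run had a median of 7 UG in the 9 genes and of 13 UG in all genes, although the median length from start to end was 28168 bases in the 9 genes and 18774 in all. *Tnik* had 54 runs of at least 6 UG, the longest with 28 UG, and *Tbc1d1* had 26, the longest with 24. *Hdac6* (minus strand of chromosome X, 7507246 to 7525015) and *Eif4h* had 2 such runs each, with up to 23 and 22 UG. *Sort1* had 4, of at most 7 UG. *Poldip3* and *Dnajc5* (plus strand of chromosome 2, 181255190 to 181289838) reached 5 UG, and *Ranbp1* (minus strand of chromosome 16, 18239877 to 18248825) and *Kpnb1* (minus strand of chromosome 11, 97021028 to 97049195) reached 4. The longest run of *Hdac6*, at chrX:7512542-7512627 with 20 flanking bases on each side, is shown as an example from a gene known for its mRNA level rather than for an exon.
Hdac6 longest run: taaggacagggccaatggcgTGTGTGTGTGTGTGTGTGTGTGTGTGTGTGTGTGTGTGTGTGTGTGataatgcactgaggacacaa

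The deposited counts are per gene, and the alternative coding exons make up 0.0652% to 2.47% of the annotated exon bases of their genes. A gene with more or less of such an exon in its mRNA would have nearly the same count, so the values below are mRNA levels and exon use was not measured.

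Per kb of annotated exon, *Eif4h* was the most abundant of the 9 mRNAs, with 131 to 137 CPM per kb in WT libraries. *Ranbp1* (24.5 to 38.1), *Kpnb1* (19.5 to 28.0), *Dnajc5* (21.04 to 26.4) and *Sort1* (17.6 to 26.0 CPM per kb) followed, and each of these ranges overlapped that of its neighbour in this order. *Poldip3* had 13.97 to 16.1 CPM per kb, below every WT value of the genes ahead of it. *Hdac6* (4.37 to 5.94), *Tnik* (2.24 to 3.57) and *Tbc1d1* (2.47 to 3.21 CPM per kb) were the lowest, and the ranges of the latter pair overlapped. All 9 mRNAs were therefore present in the lactating gland, with at least 532 counts in every library.

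**Figure D2:**
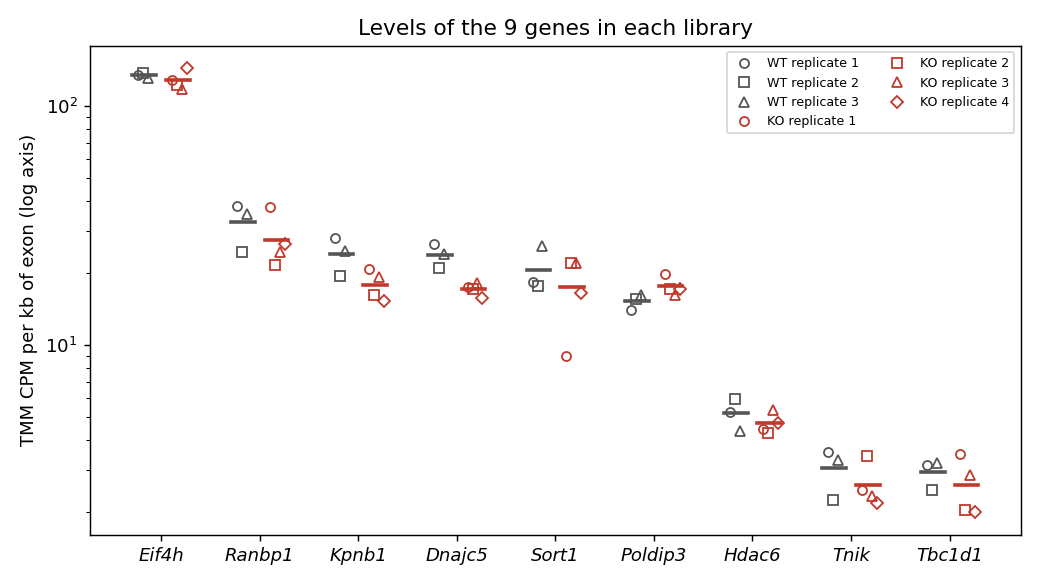
Level of each gene in each library in TMM-scaled CPM per kb of exon on a log axis, with WT libraries in grey, KO libraries in red and the group mean as a bar. Eif4h stands at 117 to 144 CPM per kb in all 7 libraries, Tbc1d1 at 1.99 to 3.50, and the KO points of Dnajc5 lie below its WT points.

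None of the 9 mRNAs passed the limits of the study's methods (a log2 fold change beyond −1 or 1 with an adjusted p under 0.01) in edgeR's quasi-likelihood test. Of all 17175 genes tested 0% passed them in this fit. The study, whose methods name edgeR but not its test, reported differentially expressed genes at these limits, and this fit did not reproduce them. At an unadjusted p under 0.05, 0 of the 9 genes were higher and 2, *Dnajc5* and *Kpnb1*, were lower in KO libraries, where 10.7% of all genes were higher and 10.7% lower. The exact test of edgeR and DESeq2's Wald test passed no member either, while they passed 426 and 572 genes of all tested. All KO libraries lay above all WT libraries for *Poldip3* (9.07% of all genes) and below them for *Dnajc5* (9.62% of all genes). The other 7 genes had overlapping groups. Genes named below from the pathway lists were the 2 with the lowest unadjusted p in each list and the partners *Grn*, *Alyref*, *Ran* and *Hspa8*. *Akt2* and *Slc2a4* are given outside this rule. For those picked by p, low p-values and groups that do not overlap follow in part from that choice. The counts of each list are likewise to be read beside the 10.7% of all genes in either direction. The log2 fold change was positive for 1 of the 9 and for 9331 of the 17175 genes tested. Its median was −0.23 over the 9 genes and 0.05 over all genes. With libraries scaled by their totals alone, however, the medians were 0.16 and 0.42, and of the 9 genes *Dnajc5* and *Kpnb1* alone were negative. Every log2 fold change below is therefore to be read relative to the median of all genes. Within lane 4, with 1 WT and 2 KO libraries and hence no test, *Dnajc5* was at −0.31, *Kpnb1* at −0.18 and *Poldip3* at 0.09, and the median of the 9 was −0.05. On the log2 scale and set against the WT mean, the median of the 9 genes was 0.10, −0.21 and 0.08 in WT replicates 1 to 3 and −0.20, −0.26, −0.19 and −0.30 in KO replicates 1 to 4. WT replicate 2 thus lay at the height of the KO libraries, and it was the lowest WT library for 6 of the 9 genes. It also had a Pearson's r of 0.9882 with KO replicate 4 across genes, above its r with the other WT libraries (0.9747 and 0.9827).

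**Figure D3:**
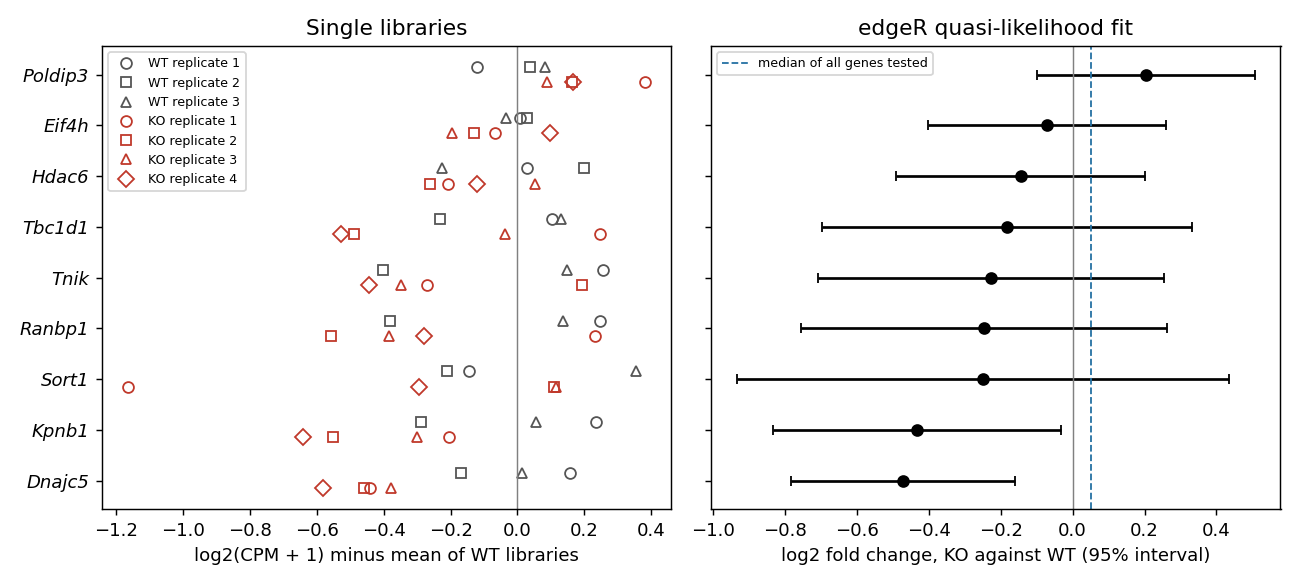
Left, log2(CPM + 1) of each gene in each library minus the mean of the WT libraries. Right, log2 fold change of KO against WT with its 95% interval, and the median of all genes tested (0.05) as a dashed line. The intervals of Dnajc5 and Kpnb1 lie below 0 and those of the other 7 genes span it.

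*Dnajc5* encodes cysteine string protein, a co-chaperone of Hsc70 that keeps SNARE proteins of secretory vesicles folded. It had 183, 146 and 166 CPM in the 3 WT replicates, against 121, 120, 126 and 110 CPM in the 4 KO replicates. With TMM scaling, every KO library lay below the lowest WT library, and the KO libraries varied little (coefficient of variation 5.85%). The group levels had a mean of 165 ± 18.5 (SD, n = 3) in WT against 119 ± 6.97 CPM (SD, n = 4) in KO, for a log2 fold change of −0.47 (SE 0.137, unadjusted p = 0.00756, adjusted p = 0.114). This is a difference of −27.9%, with a 95% interval from −41.9% to −10.5%. Permuted over the libraries, log2(CPM + 1) gave a 2-sided exact p = 0.0286, the smallest that 3 libraries against 4 can give. By unadjusted p *Dnajc5* was number 1142 of the 17175 genes. Over all alternatives its adjusted p ranged from 0.0167 with DESeq2 to 0.717 with libraries scaled by their totals alone. In the latter its groups overlapped. Its log2 fold change there was −0.09, which like −0.47 lay below the median of all genes under the same scale.

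Of the 9 listed genes of its chaperone complex and its vesicle clients, 6 were tested, 1 was higher and 0 were lower at an unadjusted p under 0.05, and their median log2 fold change was −0.01. *Hspa8*, which encodes Hsc70, had a mean of 1333 ± 206 (SD, n = 3) in WT against 1326 ± 272 CPM (SD, n = 4) in KO, a log2 fold change of −0.01. *Zdhhc17*, an enzyme that attaches palmitate to cysteine string protein, had a log2 fold change of 0.32 (adjusted p = 0.224), and the SNARE gene *Snap23* one of −0.33 (adjusted p = 0.348). The paralogs *Dnajc5b* and *Dnajc5g* and the neuronal SNARE gene *Snap25* had between 0 and 5 counts per library and were not tested.

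*Kpnb1* encodes importin beta 1, the receptor that carries most nuclear proteins through the pore. Its levels were 185, 128 and 163 CPM in the 3 WT replicates, against 136, 107, 127 and 100 CPM in the 4 KO replicates. The groups overlapped only because WT replicate 2, at 128 CPM, lay below KO replicate 1. The mean of 159 ± 28.4 (SD, n = 3) stood against 118 ± 16.8 CPM (SD, n = 4), with a log2 fold change of −0.43 (SE 0.177, unadjusted p = 0.0376, adjusted p = 0.204), or −25.9% with an interval from −43.8% to −2.12%. The exact permutation p was 0.114. The unadjusted p was 0.142 without WT replicate 1, 0.0943 without WT replicate 3, 0.0902 without KO replicate 2 and 0.0786 without KO replicate 4, so that 4 of the 7 libraries each decided this side of 0.05. Without WT replicate 2 the groups did not overlap, as for 37.2% of all genes, and the log2 fold change was −0.56 (adjusted p = 0.0982), and with totals as the scale it was −0.04. Exons of *Gm11583* on the opposite strand cover 7.07% of its exon bases, where the counting left out reads that touch the exons of both.

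*Ranbp1*, which binds Ran in its GTP form and helps to take transport complexes apart in the cytoplasm, had 63.5, 40.8 and 58.8 CPM in WT replicates 1 to 3. The KO replicates 1 to 4 had 62.9, 35.99, 40.7 and 43.8 CPM. KO replicate 1 lay among the WT libraries and WT replicate 2 among the KO libraries. Its log2 fold change was −0.25 (SE 0.225, adjusted p = 0.574, exact permutation p = 0.314), and the interval of the difference ran from −40.8% to 20.05%. Without KO replicate 1 it was −0.44, without WT replicate 2 −0.42 and without WT replicate 1 −0.12. Reads of *Ranbp1* may also match copies of its mRNA elsewhere, the longest of them the pseudogene *Gm5391* on chromosome X with 90.9% identity over 981 bases. That pseudogene had 0 to 2 counts per library, and reads with several matches were not counted.

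Of the 29 listed genes of the Ran cycle and of nuclear transport receptors, 28 were tested, and at an unadjusted p under 0.05 1 was higher and 3 were lower. Among all genes 10.7% were higher and 10.7% lower at that p. The median log2 fold change of the 28 was −0.26, beside −0.25 for *Ranbp1* and 0.05 for all genes, and a shift of the list was not tested. *Ipo8*, an import receptor, had a mean of 64.9 ± 12.003 (SD, n = 3) in WT against 47.2 ± 1.44 CPM (SD, n = 4) in KO, with all KO libraries below all WT libraries and a log2 fold change of −0.46 (adjusted p = 0.133). *Xpot*, the export receptor of transfer RNA, had a log2 fold change of −0.65 (adjusted p = 0.16). *Ran*, the GTPase of the cycle, had a mean of 136 ± 37.6 (SD, n = 3) against 106 ± 23.0 CPM (SD, n = 4), a log2 fold change of −0.36 (adjusted p = 0.428). None of these genes passed the test.

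*Poldip3* encodes SKAR, a protein loaded on spliced mRNA that links it to export factors and to S6 kinase 1. Its levels were 79.3, 88.7 and 91.6 CPM in the 3 WT replicates, against 113, 96.8, 91.8 and 97.1 CPM in the 4 KO replicates. It was the single gene of the 9 with a positive log2 fold change, 0.20 (SE 0.134, adjusted p = 0.422). Means were 86.5 ± 6.40 (SD, n = 3) against 99.6 ± 9.12 CPM (SD, n = 4). The exact permutation p was 0.0571. Groups did not overlap, but WT replicate 3 and KO replicate 3 were nearly equal, and with DESeq2's size factors or without KO replicate 4 the groups did overlap. The interval of the difference ran from −6.66% to 42.0%.

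Among 20 genes of mRNA export and S6 kinase, all tested, 0 were higher and 1 was lower at an unadjusted p under 0.05, with a median log2 fold change of −0.16. The lower gene was *Rps6kb1*, which encodes S6 kinase 1, the kinase partner of SKAR. It had a mean of 65.9 ± 13.9 (SD, n = 3) in WT against 39.6 ± 2.58 CPM (SD, n = 4) in KO, with every KO library below every WT library and a log2 fold change of −0.74 (adjusted p = 0.0784). The export factors *Ddx39*, an RNA helicase, and *Alyref* (*Thoc4* in the annotation), the adaptor that SKAR resembles, had log2 fold changes of −0.50 (adjusted p = 0.282) and −0.23 (adjusted p = 0.534).

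*Sort1* encodes sortilin, a sorting receptor of the Golgi and endosomes that binds progranulin, neurotrophin precursors and lipoprotein lipase. It had 139, 133 and 197 CPM in the 3 WT replicates, against 68.0, 166, 167 and 125 CPM in the 4 KO replicates. KO replicate 1 was far below all others, and KO replicates 2 and 3 lay between the WT libraries. The log2 fold change was −0.25 (SE 0.302, adjusted p = 0.681, exact permutation p = 0.571), and without KO replicate 1 it was −0.03. Its interval, from −47.6% to 35.2%, was the widest of the 9 genes. Exons of *Gm12523* on the opposite strand cover 4.35% of its exon bases.

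The sortilin family and its ligands, 10 genes all tested, had 2 higher and 1 lower at an unadjusted p under 0.05 and a median log2 fold change of 0.37. *Sorl1*, a relative of sortilin that sorts cargo between Golgi and endosomes, had a mean of 51.3 ± 17.5 (SD, n = 3) in WT against 105 ± 31.2 CPM (SD, n = 4) in KO, with all KO libraries above all WT libraries and a log2 fold change of 1.03 (adjusted p = 0.0998). *Sorcs2*, another receptor of the family, had a log2 fold change of 0.94 (adjusted p = 0.11). *Grn*, the gene of progranulin, had a mean of 228 ± 98.6 (SD, n = 3) against 353 ± 116 CPM (SD, n = 4), a log2 fold change of 0.63 (adjusted p = 0.343). Myeloid cells also express *Grn*, and the summed level of 8 myeloid markers was 394 to 1525 CPM in WT and 1088 to 2647 CPM in KO libraries, much of it *Cd14* (135 to 1299 and 680 to 2262 CPM). The other 7 summed to 259, 227 and 312 CPM in WT and to 407, 539, 444 and 196 CPM in KO. KO replicate 4 had the most *Grn* (497 CPM), the most *Cd14* (2262 CPM) and the least of the other 7. Of the 8 markers 0 were higher and 1 was lower at an unadjusted p under 0.05, and the part of myeloid cells in the *Grn* value was not tested.

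*Eif4h* encodes a cofactor of the helicase eIF4A, which unwinds mRNA ahead of the ribosome. It was the steadiest of the 9 genes in WT, with 328, 333 and 319 CPM in replicates 1 to 3 (coefficient of variation 2.15%). The KO replicates 1 to 4 had 312, 298, 285 and 349 CPM, and KO replicate 4 alone lay above the WT libraries. A log2 fold change of −0.07 (SE 0.146, adjusted p = 0.825, exact permutation p = 0.343) resulted, with an interval of the difference from −24.3% to 19.8%. The 12 listed genes of cap binding include inhibitors of the cap-binding complex besides its subunits. At an unadjusted p under 0.05, 0 were higher and 4, all genes of subunits, were lower. The median log2 fold change of this mixed list was 0.05, as over all genes, and does not stand for the complex. *Eif4g3*, a scaffold of the complex, had a mean of 225 ± 51.4 (SD, n = 3) in WT against 131 ± 10.1 CPM (SD, n = 4) in KO, a log2 fold change of −0.78 (adjusted p = 0.0806) with groups that did not overlap. *Eif4e*, which binds the cap, had a log2 fold change of −0.73 (adjusted p = 0.133).

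*Tnik* encodes a kinase that works with TCF and beta-catenin on Wnt target genes. It had 54.8, 34.4 and 50.8 CPM in the 3 WT replicates, against 37.8, 52.4, 35.7 and 33.4 CPM in the 4 KO replicates. KO replicate 2 lay with the WT libraries and WT replicate 2 with the KO libraries. The log2 fold change was −0.23 (SE 0.212, adjusted p = 0.584, exact permutation p = 0.371), with an interval of the difference from −38.8% to 19.2%. Without WT replicate 2 it was −0.41, without KO replicate 2 −0.39 and without WT replicate 1 −0.10. In the list of related kinases and Wnt partners, 12 genes all tested, 4 were higher and 1 was lower at an unadjusted p under 0.05, with a median of 0.21. The higher ones included *Tcf7* (log2 fold change 3.52, adjusted p = 0.0972) and *Lef1* (4.70, adjusted p = 0.103), Wnt transcription factors that T cells express strongly. *Tcf7* had 48.7, 4.39, 54.1 and 5.84 CPM in KO replicates 1 to 4, and the summed level of 10 lymphocyte markers in the same libraries was 421, 65.8, 568 and 126 CPM, against 39.1 to 57.0 CPM in WT. The part of lymphocytes in these values was not tested.

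*Tbc1d1*, a GTPase-activating protein of Rab proteins and the closest relative of AS160, restrains the movement of the glucose transporter GLUT4 to the cell surface. It had 22.5, 17.6 and 22.9 CPM in the 3 WT replicates, against 25.0, 14.6, 20.3 and 14.2 CPM in the 4 KO replicates. The highest and the lowest library were both KO. The log2 fold change was −0.18 (SE 0.228, adjusted p = 0.689, exact permutation p = 0.4), with an interval of the difference from −38.4% to 25.9%. Without KO replicates 1 and 3, which had the highest lymphocyte markers, it was −0.55 (unadjusted p = 0.0323, adjusted p = 0.371), and its groups no longer overlapped. In that fit 12.5% of all genes had an unadjusted p under 0.05 and 31.5% had groups that did not overlap. Without KO replicate 1 alone the value was −0.36, and without KO replicate 2 it was −0.08.

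Of 12 genes of AS160 and GLUT4 traffic, all tested, 1 was higher and 3 were lower at an unadjusted p under 0.05, with a median of −0.22. *Slc2a1*, the gene of the glucose transporter GLUT1, had a mean of 181 ± 54.0 (SD, n = 3) in WT against 83.9 ± 13.9 CPM (SD, n = 4) in KO, a log2 fold change of −1.11 (adjusted p = 0.0753). *Akt1*, which encodes a kinase that phosphorylates AS160, had a mean of 680 ± 123 (SD, n = 3) against 325 ± 75.1 CPM (SD, n = 4), a log2 fold change of −1.07 (adjusted p = 0.0793). For both, every KO library lay below every WT library, and neither passed the limits in the quasi-likelihood test. *Akt2*, a relative of *Akt1* in the same list, had a log2 fold change of 0.29 (adjusted p = 0.32), with all KO libraries above all WT libraries. *Slc2a4*, the gene of GLUT4, had one of 0.04 (adjusted p = 0.943). The study lists *Akt1* among the lipid genes that differed in its own edgeR analysis.

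*Hdac6* encodes a cytoplasmic deacetylase of tubulin that also takes part in the clearance of protein aggregates. Its levels were 30.5, 34.5 and 25.4 CPM in the 3 WT replicates, against 25.8, 24.8, 31.1 and 27.5 CPM in the 4 KO replicates, and the groups overlapped at both ends. KO stood against WT at a log2 fold change of −0.14 (SE 0.153, adjusted p = 0.634, exact permutation p = 0.314), with an interval of the difference from −28.9% to 15.05%. Of 12 genes of histone deacetylases and tubulin acetylation, 2 were higher and 0 were lower at an unadjusted p under 0.05, with a median of 0.22. *Hdac7* had a mean of 38.1 ± 9.76 (SD, n = 3) in WT against 72.6 ± 6.02 CPM (SD, n = 4) in KO, a log2 fold change of 0.93 (adjusted p = 0.0739), and *Hdac5* one of 0.42 (adjusted p = 0.203). Both encode deacetylases of another class, which act on gene expression, and both had all KO libraries above all WT libraries.

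**Figure D4:**
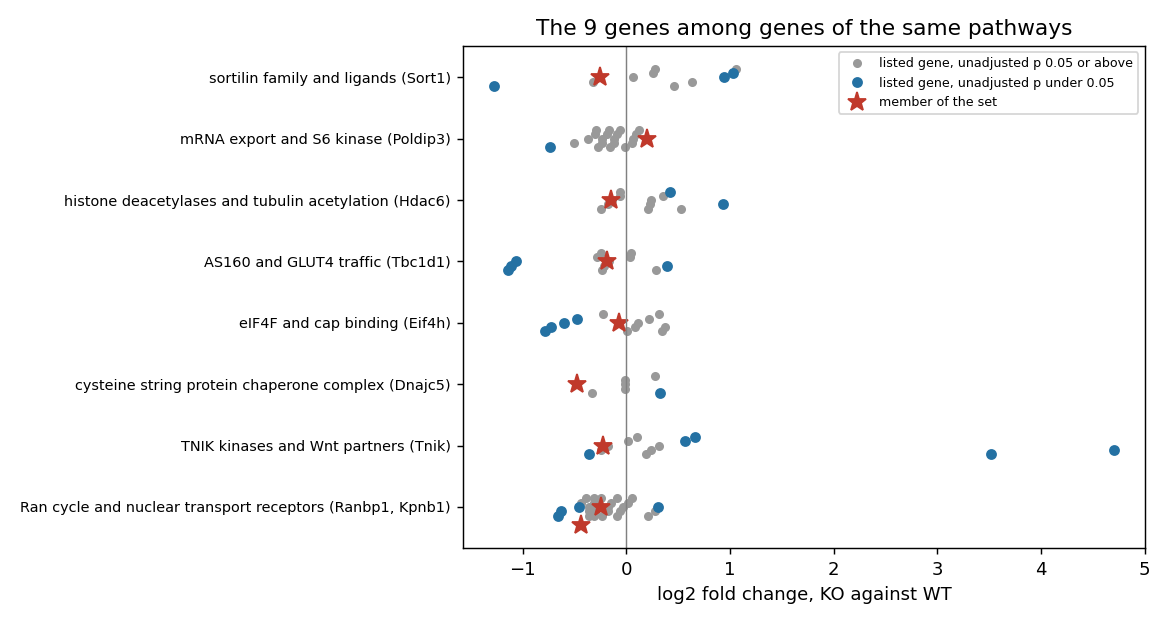
Log2 fold change of KO against WT for the 9 genes (stars) and for the listed genes of the same pathways (points, blue at an unadjusted p under 0.05), 1 row per list. Dnajc5 lies below all tested genes of its list, Poldip3 above those of its list, and Tcf7 (3.52) and Lef1 (4.70) lie apart from the other genes.

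The makeup of the glands differed between libraries in ways that run beside these values. The 10 lymphocyte markers all had an unadjusted p under 0.05 and were higher in KO libraries (median log2 fold change 2.56), with KO replicates 1 and 3 highest. With their level as a covariate the log2 fold change of *Dnajc5* was −0.55 and that of *Kpnb1* −0.69 (adjusted p = 0.569 for both), and without KO replicates 1 and 3 they were −0.53 and −0.61 (adjusted p = 0.36 and 0.349). Myoepithelial markers, 8 genes with 0 at an unadjusted p under 0.05, summed to 1924, 1128 and 1837 CPM in WT replicates 1 to 3 and to 2893, 979, 1153 and 1114 CPM in KO replicates 1 to 4. WT replicates 1 and 3 and KO replicate 1, the libraries with the most of them, also had the most *Ranbp1*, *Tbc1d1* and *Kpnb1*. The part of myoepithelial cells in the values of these genes was not tested. The sum of 10 luminal markers, nearly all of it the milk protein gene *Csn2*, was 117134 to 155293 CPM in WT and 34762 to 87970 CPM in KO libraries, while 2 of the 10 were higher and 2 lower at an unadjusted p under 0.05. Markers of adipocytes (10 genes), endothelium (7) and fibroblasts (7) had 0 genes at that p, and the 5 tested markers of skeletal muscle summed to at most 4.88 CPM, so muscle was nearly absent.

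Across the 7 libraries, *Dnajc5* and *Kpnb1* had the most similar log2 levels among the 9 genes (Pearson's r = 0.92). *Tbc1d1* followed *Ranbp1* and *Kpnb1* (both 0.82), and *Poldip3* ran opposite to *Dnajc5* (−0.74). Among all tested genes with a mean of at least 5 CPM, the closest gene was *Tmem47* for *Dnajc5* (0.996), *Fastkd1* for *Kpnb1* (0.999), *Srebf2* for *Ranbp1* (0.991) and *Mus81* for *Eif4h* (0.989). It was *Tmem185b* for *Poldip3* (0.984), *Mcm5* for *Tbc1d1* (0.981), *Ddx10* for *Hdac6* (0.979), *Lpin1* for *Tnik* (0.968) and *Fh1* for *Sort1* (0.967). With 7 points such values are common, as 419 genes had an r above 0.9 with *Dnajc5*, 242 with *Kpnb1* and 7 with *Hdac6*. These values describe libraries that share their scaling and their cell makeup. They were taken over both genotypes together, so a difference between WT and KO enters them as well.

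Counting error was small beside the spread between libraries. With 532 to 13928 counts per gene and library it came to 0.847% to 4.34%, whereas the coefficient of variation within a genotype was 2.15% to 35.4%. Differences of the size seen for *Dnajc5* could thus have been missed in *Sort1*, *Tbc1d1*, *Tnik*, *Ranbp1* and *Hdac6*, whose intervals all include −27.9%. For *Eif4h* and *Poldip3* they lay outside the interval of the fit with all 7 libraries. Without KO replicate 4 the log2 fold change of *Eif4h* was −0.15 (SE 0.143), against −0.07 with all libraries.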

How the data were processed

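RNA-seq of whole mammary glands was analysed from 3 WT and 4 KO libraries, grouped by their labels. The authors made libraries with a TruSeq kit, mapped paired reads to NCBIM37 with STAR (2.5.2a in the submitters' processing notes, an earlier release in the study's methods) and counted reads on exons with featureCounts 1.4.6-p5. The deposited values are raw counts of 37310 genes, with no option for strand, pairs or multiple matches in the header's command line. That line names 8 libraries, of which 7 have a column.

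Following the study's methods, 37 mitochondrial and 580 ribosomal genes were left out, and a minimum of 5 counts in 4 or more libraries left 17175 genes. KO was compared with WT by edgeR 4.0.16 (R 4.3.3), with TMM factors, the quasi-likelihood test and Benjamini-Hochberg adjustment over all 17175 genes (common dispersion 0.0921, prior degrees of freedom 3.91), and single genes by a 2-sided exact permutation test with 35 arrangements, with a pseudocount of 1. Alternatives were other normalizations, filters and tests (DESeq2 1.42.0), a replicate block, a lymphocyte covariate, lane 4 only, and libraries left out.

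UG runs were searched in the reference genome and annotation on the sense strand with Python 3.11.15, as at least 6 unbroken UG (or 4, or 10), and copies of transcripts with minimap2 2.31-r1302. The scripts were tested on simulated data. Genes other than the 9 were named by a rule, the 2 lowest unadjusted p-values per pathway list, the partners *Grn*, *Alyref*, *Ran* and *Hspa8*, the closest gene by Pearson's r, and *Tardbp*. *Akt2* and *Slc2a4* were added outside this rule. The genes and the lists were chosen with earlier results of these data known.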

Additional observations from a re-analysis of the deposited data

Results flagged for a closer look

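*Eif4e* and *Xpot*, from the lists of cap-binding and nuclear transport genes, each had a KO library far from the other KO libraries. *Eif4e* had 43.7 CPM in KO replicate 1 and between 33.0 and 34.5 CPM in KO replicates 2 to 4. *Xpot* had 89.8 CPM in KO replicate 1 and between 54.6 and 60.6 CPM in the others. In both, KO replicate 1 lay within the range of the WT libraries. The gap, divided by the range of the group, was above Dixon's 95% critical value for 4 samples in 2 of the 30 genes examined, where chance gives about 1 in 20 groups. None of the 9 genes named at the start had such a library.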

How the results depend on the processing

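No setting put a member past the study's limits. With library totals alone as the scale, under which all genes had a median of 0.42, the 9 had 0.16, 1 gene (*Poldip3*) had an unadjusted p under 0.05 (33.8% of all genes), and *Sort1*, *Hdac6*, *Tbc1d1*, *Eif4h*, *Tnik* and *Ranbp1* turned to 0.13, 0.23, 0.20, 0.29, 0.16 and 0.13. Within lane 4, with 1 WT and 2 KO libraries and no test, the median was −0.050, and *Sort1*, *Tnik* and *Ranbp1* were 0.12, 0.0065 and 0.047. With the lymphocyte covariate *Tnik* was 0.019, *Sort1* −0.01, *Hdac6* −0.29, *Ranbp1* −0.58 and *Tbc1d1* −0.68, and 3 genes (*Tbc1d1*, *Dnajc5*, *Kpnb1*) had an unadjusted p under 0.05 (8.68% of all genes). DESeq2's size factors left 1 gene whose groups did not overlap (18.4% of all genes), and leaving out KO replicates 1 and 3, chosen after seeing the data, gave 4 (31.5%). With library totals alone the groups of *Poldip3* and *Eif4h* did not overlap (28.3% of all genes), while those of *Dnajc5* did. With each library left out in turn, 1 or 2 genes had an unadjusted p under 0.05 (12.3% to 25.4% of all genes), and the median of the 9 was −0.35 to −0.13. *Tardbp* was −0.0050 with DESeq2's factors or test, −0.040 with the replicate block, −0.091 to 0.16 without single libraries and 0.38 with library totals alone. UG runs in 5 genes (63.1% of all genes) became 9 with at least 4 UG (77.6% of all genes) and 0 in exons (8.63% of all genes). WT and KO libraries of the same replicate number had r = 0.437, 0.0744 and −0.0836 across genes, after removal of group means. Whether replicate numbers pair the libraries was not tested. With the replicate block 1 gene, *Dnajc5*, had an unadjusted p under 0.05 (24.6% of all genes). The causes were not tested. Depth limits little here, as the spread between libraries exceeds counting error.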
